A study of Mus musculus with 9 samples.

Results

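Interleukin receptors and members of the TNF superfamily were examined in mouse lung after injected endotoxin and after ventilation at high pressure. The members were all probes whose gene symbol on the array platform begins with Il, a number and r, or with Tnfrsf or Tnfsf, with Tnfrsf12a left out. This gave 41 probes for 41 genes, of 10012 probes and 8841 named genes on the array. They were 19 interleukin receptor genes, 15 TNF receptor genes and 7 TNF ligand genes. The first class holds Il1rn by its symbol, although that gene encodes a secreted antagonist and not a receptor. RNA of lung tissue had been measured on 9 arrays. The first group held 3 controls. A second group of 3 had received an injection of E. coli lipopolysaccharide (LPS, the endotoxin of the bacterial cell wall) of the serotype given in the labels as O127:BO, at 3 mg/kg. The third group of 3 had been ventilated mechanically for 3 h at a pressure of 25 cmH2O, called overventilation. The sources used here do not give strain, sex, age, how controls were handled or how long after the injection lungs were taken. Whether each sample is an animal of its own is not stated either, so the spread behind every p-value may be technical.

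Interleukin receptors are mostly built of a chain that binds the cytokine and a chain that is shared between cytokines, and they signal through JAK kinases and STAT factors. The interleukin 1 family is an exception, since its receptors recruit MyD88 and activate NF-kB, and its signal is limited by a decoy receptor (Il1r2) and by the antagonist Il1rn. TNF ligands are trimers that cluster their receptors. Some receptors of the family carry a death domain and can start apoptosis, others bind TRAF adaptors and activate NF-kB, and a few are decoys that bind ligand without a signal. In the lung, TNF and interleukin 1 are early mediators of the response to endotoxin and to injurious ventilation, and their receptors lie on leukocytes, endothelium and epithelium. In whole lung tissue, fewer cells of a type and less RNA per cell cannot be told apart.

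The deposited values are ratios to the mean of the 3 control arrays, given here on the log2 scale with the control mean at 0, so levels of different genes cannot be compared. Each array had a lowest possible value, its floor, shared by the probes without more signal than that. The floor stood at a ratio of 2.22 on overventilation array 3 and between 0.709 and 1.32 on the other 8 arrays. Over all 10012 probes, 27.8% to 42.4% of values lay at the floor of an array. Of the defining markers of lung, all 6 probes (5 genes) of alveolar type II cells were tested, as were both club cell probes. Of endothelial markers and of macrophage and monocyte markers, 4 of 6 probes each were tested. Cdh5 and Adgre1 of these lists were at the floor on all 9 arrays, and Pecam1 and Itgam on 8. Among 10 T and NK cell marker probes, those of Cd3e, Cd8a and Nkg7 were at the floor on all 9 arrays. Adipose tissue markers, with 2 probes, set controls 1 and 2 apart from every other array. Their medians were 0.86 and 0.92, while control array 3 had a median of -1.78. Treated arrays were low too, between -3.75 and -1.94 for LPS and between -2.55 and -1.29 for overventilation. Control array 3 thus lay within the overventilation range for these markers. The part of this difference between controls in the results below was not tested. Every member has 1 probe, so no member's values could be set against a second probe.

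Members lay at the floor about as often as other probes. At 20 of the 41 (48.8%, against 46.8% of all probes) 2 or more arrays lay at the floor, and 4 of these (9.76%, against 19.1% of all probes) were at the floor on all 9 arrays. The 4 were Il21r and Il27ra, the receptor chains for interleukins 21 and 27, Tnfrsf21, a death domain receptor known as DR6, and Tnfrsf22, a decoy receptor for TRAIL. By class, the 20 genes were 15 of 19 interleukin receptors, 5 of 15 TNF receptors and none of the 7 TNF ligands. Of all 369 member values 33.3% lay at a floor, close to the 34.7% of all values on the arrays. The literal floor value, that of the most frequent row of the table, was found at 9 members. At the others at least 1 control array stood above the floor, which raises the control mean and makes the floor appear as a lower ratio.

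The floor decides how a deposited ratio of such a gene reads. On overventilation array 3, 19 members were at the floor, and at 16 of them (84.2%) the deposited ratio of that array was the highest of all 9, as it was for 82.2% of all 4242 probes at the floor there. Tnfrsf21, at the floor throughout, has a deposited log2 ratio of 1.15 on overventilation array 3 and of -0.32 on overventilation array 2. Both ratios are the floor itself and hold no measure of RNA. Heights above the floor given below are counted from each array's own floor, unless a common floor is named. Floors differ, so a height on 1 array is not a level to set against the height on another. For the comparisons below, values were therefore raised to a common floor, the highest of the 9, wherever a gene's distance from the floor was known. Tested were probes with 3 or more arrays above the common floor and probes with fewer than 2 arrays at a floor of their own. By this rule 23 of the 41 members were tested (56.1%, against 57.0% of all probes), 6 interleukin receptors, 10 TNF receptors and 7 ligands. For 21 of them the distance from the floor is unknown, and Il15ra and Il7r passed by their level.

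**Figure D1:**
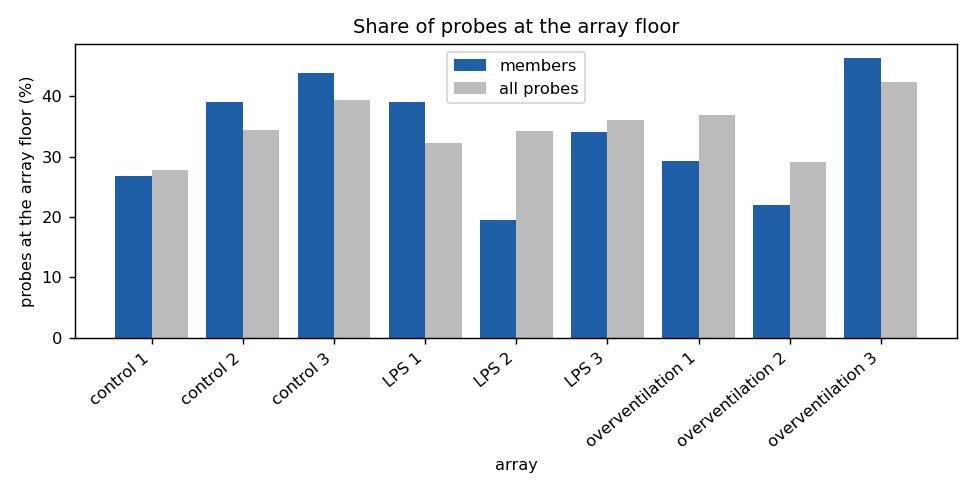
Percentage of the 41 members (blue bars) and of all 10012 probes (grey bars) at the floor of each array. Members were at the floor least often on LPS array 2, with 8 of 41 or 19.5%, and most often on overventilation array 3, with 19 of 41 or 46.3%.

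No member changed in any of the 3 comparisons by limma at an adjusted p under 0.05, the level at which 0.0% of the 5710 tested probes were called in each comparison. Between overventilation and control, 2 of 23 members, Tnfsf9 and Tnfrsf10b, had an unadjusted limma p under 0.05, against a background of 14.9% of all tested probes. That makes 8.70% of the members, below the background. The count ran from 0 to 3 over the alternatives, with 0 without control replicate 3, without overventilation replicate 3 and with quantile normalization. Between LPS and control it was 0 of 23 (background 2.07%), and between overventilation and LPS 0 of 23 (background 9.51%). Arrays of overventilation and control did not overlap at 3 members, Tnfsf9, Tnfrsf10b and Il3ra, each higher after overventilation, or 13.0% of the members, against 19.6% of all tested probes. For LPS and control there was no such member (background 6.32%), and for overventilation and LPS there was 1, Tnfsf9 (background 11.2%).

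Small differences lay more often on the higher side. After overventilation 15 of 23 members were on the higher side of the controls, or 65.2%, against 49.4% of all tested probes, and after LPS 16 of 23, or 69.6%, against 44.7%. Between overventilation and LPS 13 of 23 lay on the higher side, or 56.5%, against 55.0%. The first and the second comparisons use the same 3 controls. The median log2 difference of the members was 0.12 after overventilation and 0.10 after LPS, beside -0.01 and -0.05 for all tested probes. By class, the medians after overventilation were 0.12 for interleukin receptors, 0.11 for TNF receptors and 0.12 for ligands, and after LPS 0.28, 0.03 and 0.09. They moved with single arrays. For overventilation the ligand median ran from 0.04 without control replicate 1 to 0.50 without control replicate 2, the TNF receptor median from -0.05 without control replicate 3 to 0.37 without overventilation replicate 2, and the interleukin receptor median from 0.05 without control replicate 3 to 0.28 without control replicate 2. For LPS the ligand median ran from -0.13 without LPS replicate 2 to 0.20 without LPS replicate 1, the TNF receptor median from -0.18 without LPS replicate 1 to 0.38 without LPS replicate 3, and the interleukin receptor median from 0.17 without control replicate 3 to 0.42 without control replicate 2. On control arrays 1 to 3 the interleukin receptor medians were 0.02, 0.04 and -0.14. Those of TNF receptors were 0.33, -0.04 and -0.32, and those of ligands -0.27, 0.13 and 0.03. The SD within a group had a median of 0.46 over the 23 members and of 0.53 over all tested probes. That SD is of single genes and does not measure the spread of a class median.

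**Figure D2:**
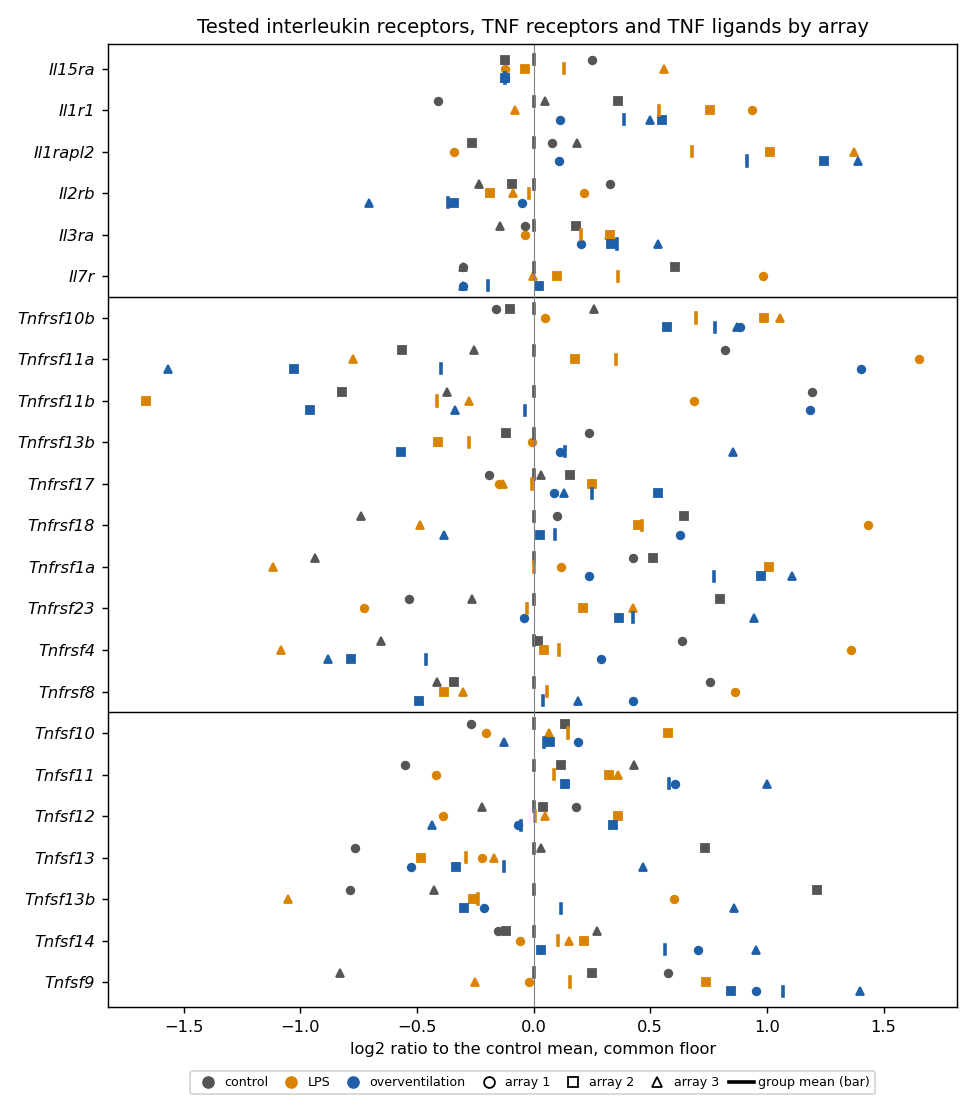
Log2 ratio to the control mean (x axis) of the 23 tested members on all 9 arrays, with interleukin receptors at the top, TNF receptors in the middle and ligands at the bottom. Colours mark groups, symbols mark array numbers and vertical bars mark group means. Tnfsf9 is the member whose 3 overventilation arrays lie above all 6 other arrays.

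Among the ligands, Tnfsf9 had the highest difference of all 23 members. It encodes the ligand of 4-1BB, a costimulatory receptor of activated T cells. The 3 control arrays lay at 0.58, 0.25 and -0.83, the LPS arrays at -0.02, 0.74 and -0.25 and the overventilation arrays at 0.96, 0.85 and 1.40. All overventilation values were above all others, although the lowest of them, 0.85, lay close to LPS array 2. The overventilation mean was 1.07 ± 0.29 (SD, n = 3) and the control mean 0 ± 0.74, a 2.10-fold difference (log2 difference 1.07, limma adjusted p = 0.284). Over the alternatives the limma adjusted p of this difference ran from 0.209 to 0.792. Without control replicate 3, the lowest value of the gene, the log2 difference was 0.65. Against LPS it was 0.91 (95% interval -0.06 to 1.88, adjusted p = 0.541), and LPS differed from control by 0.16 (adjusted p = 1).

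TRAIL, encoded by Tnfsf10, and its death receptor DR5, encoded by Tnfrsf10b, were both measured. Tnfrsf10b lay at -0.16, -0.10 and 0.26 in controls, at 0.05, 0.99 and 1.06 after LPS and at 0.88, 0.57 and 0.87 after overventilation. The overventilation arrays lay above all controls, and so did LPS arrays 2 and 3, while LPS array 1 stood among the controls. Its log2 difference was 0.78 with a standard error of 0.35 for overventilation (95% interval 0.00 to 1.55, 1.71-fold, limma adjusted p = 0.335) and 0.70 for LPS (1.62-fold, adjusted p = 1). Tnfsf10 lay at -0.27, 0.13 and 0.13 in controls, at -0.20, 0.58 and 0.07 after LPS and at 0.19, 0.07 and -0.13 after overventilation. Its groups overlapped in every comparison, with differences of 0.04 (95% interval -0.66 to 0.74) for overventilation and 0.15 (-0.55 to 0.85) for LPS against control, and of -0.10 (-0.80 to 0.60) for overventilation against LPS. Of the decoy receptors for TRAIL, Tnfrsf22 was at the floor throughout and Tnfrsf23, its neighbour on the chromosome in RefSeq's GRCm38.p6 gene order, had overlapping groups with values from -0.73 to 0.95.

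Both receptors of TNF itself had overlapping groups or lay at the floor. Tnfrsf1b, the second TNF receptor, was at the floor on 8 arrays and stood 0.62 above it on overventilation array 2. Tnfrsf1a, the main TNF receptor with a death domain, lay at 0.43, 0.51 and -0.94 in controls, at 0.12, 1.01 and -1.12 after LPS and at 0.24, 0.98 and 1.11 after overventilation. On array 3 of the controls and of LPS it was thus low, and on overventilation array 3 it was at its highest. Its log2 difference was 0.77 for overventilation (95% interval -0.53 to 2.08, limma adjusted p = 0.587), 0.00 for LPS (-1.30 to 1.31) and 0.77 between them (-0.54 to 2.08). Without control replicate 3 the difference for overventilation was 0.31, and without LPS replicate 3 the difference between overventilation and LPS was 0.21. Each interval includes log2 differences of 0 and of 1.

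**Figure D3:**
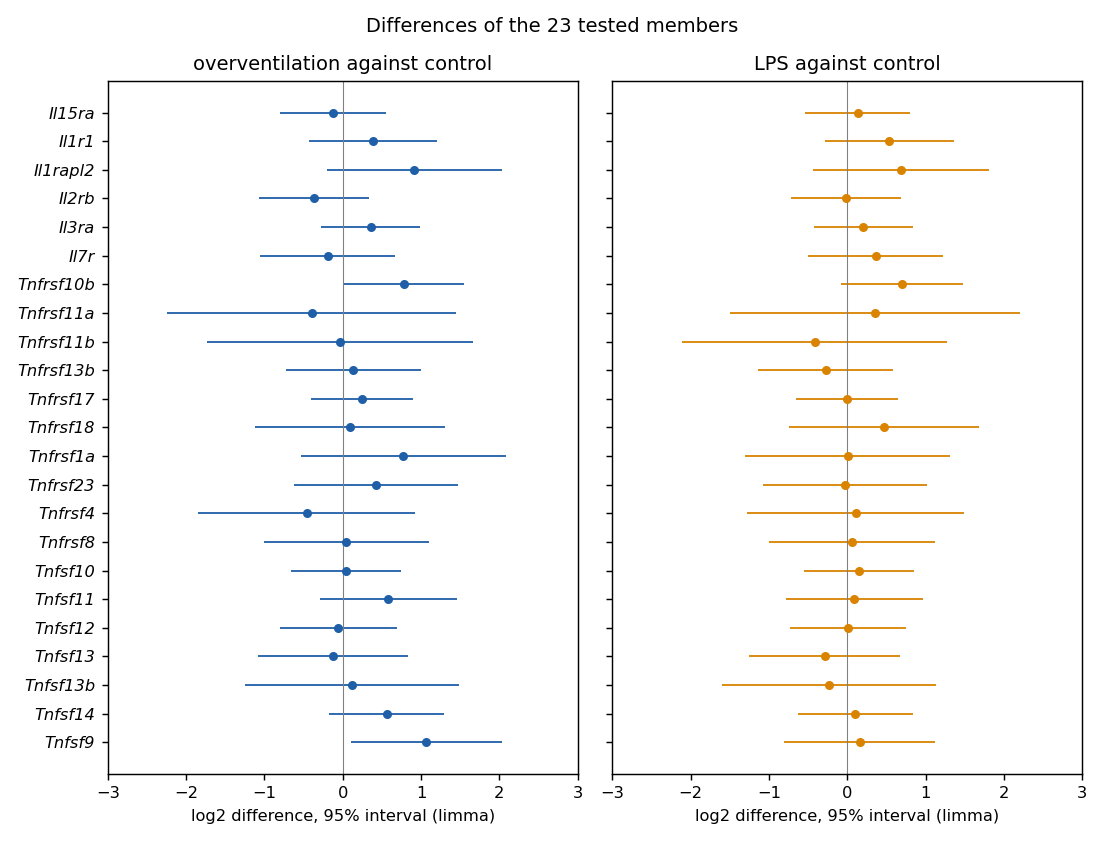
Log2 difference from control (x axis) of each tested member after overventilation (left) and after LPS (right), with the 95% interval of the limma fit. Of the 23 intervals on the left those of Tnfsf9 and Tnfrsf10b do not reach 0. Both panels share the 3 controls.

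Receptors that costimulate T cells had wide ranges within each group and no group stood apart. Tnfrsf4 (OX40) lay at 0.64, 0.02 and -0.65 on control arrays 1 to 3, at 1.36, 0.05 and -1.08 on LPS arrays 1 to 3 and at 0.29, -0.78 and -0.88 on overventilation arrays 1 to 3. In each group array 1 was the highest and array 3 the lowest. Its log2 difference was -0.46 for overventilation (95% interval -1.85 to 0.93). Tnfrsf18 (GITR), the next gene on the chromosome in RefSeq's GRCm38.p6 order, lay at 0.10, 0.64 and -0.74 in controls, at 1.43, 0.45 and -0.49 after LPS and at 0.63, 0.03 and -0.39 after overventilation. It too was lowest on array 3 in each group and had its highest value on LPS array 1. Tnfrsf8 (CD30), found on activated lymphocytes, had array 1 as its highest in each group, at 0.76, 0.86 and 0.43. The promoter windows of the neighbours Tnfrsf4 and Tnfrsf18 are shown because these genes held the same order in the LPS and overventilation arrays. They are RefSeq windows of build GRCm38.p6, plus strand, 5′ to 3′, from 250 bases before to 50 after the start site, at chr4:156013445-156013744 and chr4:156026072-156026371. Capitals mark a match to the STAT motif TTCNNNGAA, which the first window does not hold.
Tnfrsf4: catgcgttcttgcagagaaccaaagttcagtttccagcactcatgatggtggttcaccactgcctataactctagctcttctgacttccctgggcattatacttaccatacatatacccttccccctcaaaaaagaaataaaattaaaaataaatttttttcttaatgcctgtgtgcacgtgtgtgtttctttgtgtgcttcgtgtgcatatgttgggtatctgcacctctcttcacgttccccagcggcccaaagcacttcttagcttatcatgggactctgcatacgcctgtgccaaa
Tnfrsf18: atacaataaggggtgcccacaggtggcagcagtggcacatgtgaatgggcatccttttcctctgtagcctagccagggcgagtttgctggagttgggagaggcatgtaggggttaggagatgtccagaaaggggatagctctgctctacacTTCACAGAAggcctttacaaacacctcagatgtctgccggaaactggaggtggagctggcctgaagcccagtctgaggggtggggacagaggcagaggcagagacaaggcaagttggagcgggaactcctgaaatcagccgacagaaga

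RANK and the soluble decoy of its ligand had their highest values on the same array of each group, and the ligand itself on another. Tnfrsf11a encodes RANK, a receptor of osteoclast precursors and dendritic cells, and Tnfrsf11b encodes osteoprotegerin, the soluble decoy of the ligand Tnfsf11 (RANKL). Tnfrsf11a lay at 0.82, -0.57 and -0.26 in controls, at 1.65, 0.18 and -0.77 after LPS and at 1.40, -1.03 and -1.57 after overventilation. It had the widest spread of all tested members, with an SD within groups of 1.23. Tnfrsf11b lay at 1.19, -0.82 and -0.37, at 0.69, -1.66 and -0.28 and at 1.18, -0.96 and -0.34. Array 1 was the highest of each group for both. The group differences were small beside that, at -0.42 for Tnfrsf11b after LPS (95% interval -2.11 to 1.28) and -0.75 for Tnfrsf11a between overventilation and LPS (-2.60 to 1.10). Tnfsf11 lay at -0.55, 0.12 and 0.43 in controls, at -0.42, 0.32 and 0.36 after LPS and at 0.61, 0.13 and 1.00 after overventilation. For the ligand array 3 was the highest of each group, and its log2 difference for overventilation was 0.58 (95% interval -0.29 to 1.45).

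Counted over the tested members, array 1 was the highest of its group in all 3 groups at 5 of 23, namely Tnfrsf4, Tnfrsf8, Tnfrsf11a, Tnfrsf11b and Il2rb. That is 21.7%, near the 16.9% of all tested probes. Array 1 was the lowest in all 3 groups at 2 members, Tnfrsf17 and Tnfrsf23, or 8.70% against 17.1% of all tested probes. T and NK cell markers had medians of -0.04, 0.37 and -0.27 on control arrays 1 to 3, of 0.72, -0.24 and -0.53 on LPS arrays 1 to 3 and of -0.03, -0.31 and -0.25 on overventilation arrays 1 to 3, over 5 tested probes of 10. They were thus highest on array 1 after LPS and overventilation and not in controls, and their part in the values of the T cell costimulatory receptors was not tested.

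**Figure D4:**
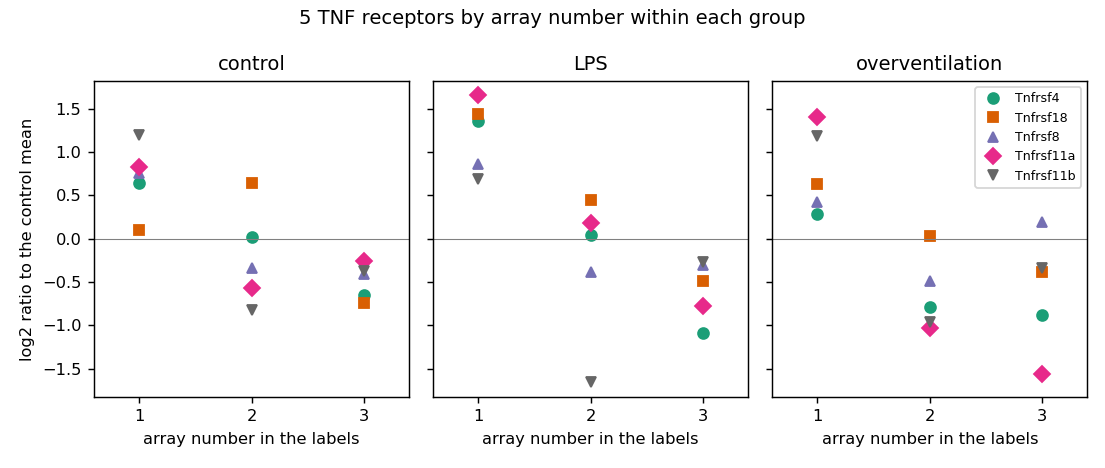
Log2 ratio to the control mean (y axis) of 5 TNF receptors, chosen after their values were seen, against the array number in the labels (x axis; the 5 are Tnfrsf4, Tnfrsf18, Tnfrsf8, Tnfrsf11a and Tnfrsf11b), with a panel for each group. Tnfrsf4, Tnfrsf8, Tnfrsf11a and Tnfrsf11b are highest on array 1 in each panel.

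Receptors and ligands of B cell survival showed no group difference beyond their spread. Tnfsf13b (BAFF) had overlapping groups, from -0.79 to 1.22 in controls, -1.05 to 0.60 after LPS and -0.30 to 0.86 after overventilation. Tnfsf13 (APRIL) lay at -0.76, 0.73 and 0.03 in controls, at -0.22, -0.48 and -0.17 after LPS and at -0.52, -0.33 and 0.47 after overventilation. It had the lowest difference of any ligand in both comparisons with control, -0.13 for overventilation and -0.29 for LPS (95% interval -1.25 to 0.67). Of their receptors, Tnfrsf17 (BCMA) ranged from -0.19 to 0.53 over all 9 arrays and Tnfrsf13b (TACI) from -0.57 to 0.86, the last on overventilation array 3. Tnfrsf13c, the BAFF receptor, was at the floor on 5 arrays. It stood 0.60 and 0.50 above the floor on control arrays 2 and 3, 0.13 above it on LPS array 2 and 0.71 above it on overventilation array 2. These heights start from unequal floors. The deposited log2 ratios were 0.33 and 0.53 on these controls, -0.26 on LPS array 2 and 0.02 on overventilation array 2. Both controls were thus the higher on that scale. Tnfrsf19 (TROY), a receptor known from brain and skin, was at the floor on 6 arrays and stood at most 0.47 above it, on overventilation array 2.

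The other ligands were Tnfsf14 (LIGHT), a costimulator of T cells, and Tnfsf12 (TWEAK), the ligand of Tnfrsf12a. Tnfsf14 lay at -0.15, -0.12 and 0.27 in controls, at -0.06, 0.22 and 0.15 after LPS and at 0.70, 0.03 and 0.95 after overventilation. Overventilation arrays 1 and 3 were above all other arrays and array 2 was among the controls. Tnfsf12 overlapped between all groups, within -0.43 and 0.36. The median over the 7 ligands was 0.19 and 0.07 on overventilation arrays 1 and 2 and 0.86 on array 3, while the median over all tested probes was -0.03, 0.01 and -0.01 on these arrays.

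In the interleukin 1 system, the antagonist and the accessory chain lay at the floor on 2 of 3 controls and above it on 2 or 3 of the overventilation arrays. Il1rn, the antagonist, was above the floor on 1 control array, by 1.05 on array 1, on 1 LPS array, by 0.44 on array 2, and on all 3 overventilation arrays, by 1.37, 0.86 and 2.14. The last value was counted from the highest of all floors, so it is the highest level of the gene on any array of the deposited scale. There control array 1 was at 0.20, LPS array 2 at 0.06 and the overventilation arrays at 0.99, 0.19 and 2.94. Overventilation array 2 thus lay just below control array 1. Il1rn did not pass the filter on low values, since it was above the common floor on overventilation arrays 1 and 3 alone. On the common floor all controls and LPS arrays are at it, so a difference between groups has no measured control level and none is given. Il1rap, the accessory chain that the interleukin 1 and interleukin 33 receptors share, was above the floor on control array 1 by 0.72, on LPS arrays 2 and 3 by 0.98 and 0.64 and on overventilation arrays 1 and 2 by 1.52 and 1.25. On overventilation array 3 it was at the floor. With that array left out and the floor set at the highest of the other 8, an alternative added after the data were seen, Il1rap lay at the floor on all 3 controls and on LPS array 1, 0.56 and 0.22 above it on LPS arrays 2 and 3 and 1.09 and 0.53 above it on overventilation arrays 1 and 2. It passed that filter by treated arrays alone, so no test is given.

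Il1r1, the signalling receptor, lay at -0.41, 0.36 and 0.05 in controls, at 0.94, 0.76 and -0.08 after LPS and at 0.11, 0.55 and 0.50 after overventilation. LPS arrays 1 and 2 were above all controls and LPS array 3 was among them. Its log2 difference was 0.54 for LPS (95% interval -0.28 to 1.36) and 0.39 for overventilation (-0.43 to 1.21). Il1r2, the decoy receptor, was at the floor on all 3 controls. It stood above the floor by 0.41 and 0.32 on LPS arrays 2 and 3 and by 0.26 and 0.43 on overventilation arrays 1 and 2. On the deposited scale these values were 0.39 and 0.30, and 0.23 and 0.11. All lay below the floor of control array 3, at 0.40, so that array could not have shown them. With overventilation array 3 left out and the common floor set without it, Il1r2 was at that floor on every array. Il1rapl2, a relative of the accessory chain known from brain, had the highest difference of the tested interleukin receptors in all 3 comparisons, at 0.92 for overventilation (95% interval -0.21 to 2.04), 0.68 for LPS (-0.44 to 1.80) and 0.24 between them (-0.89 to 1.36). Its values were 0.08, -0.27 and 0.18 in controls, -0.34, 1.01 and 1.37 after LPS and 0.11, 1.24 and 1.39 after overventilation. In both treated groups arrays 2 and 3 were high and array 1 was within or below the range of the controls.

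**Figure D5:**
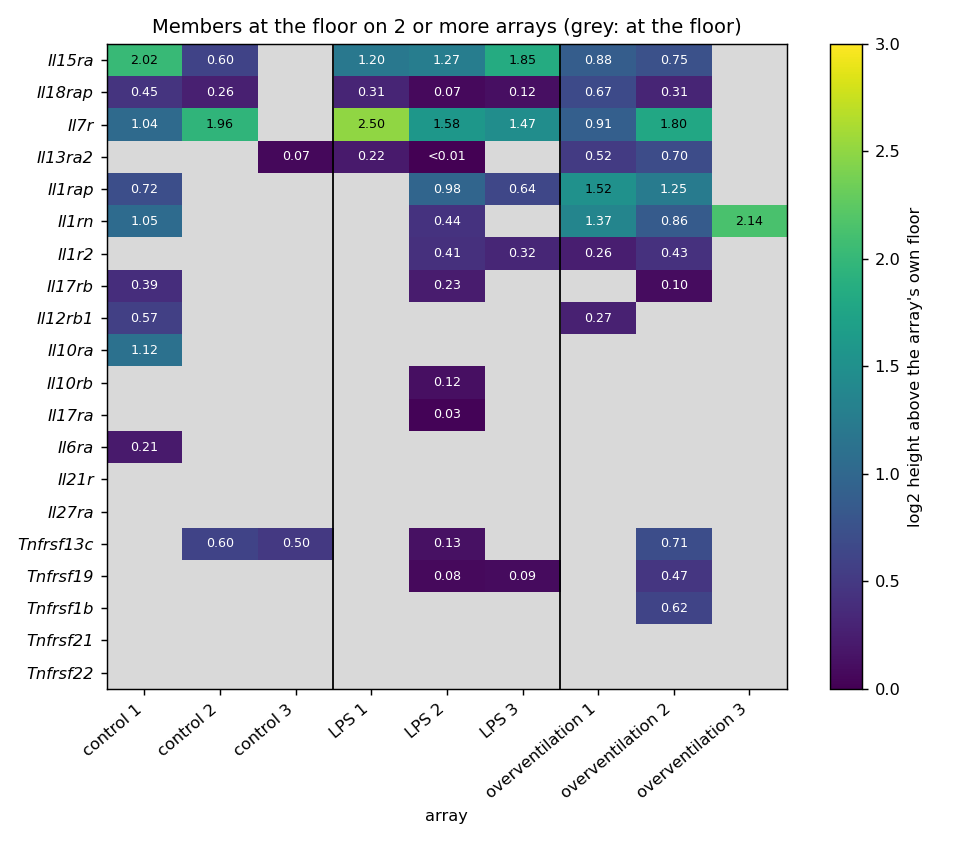
Log2 height above the array's own floor for the 20 members with 2 or more arrays at the floor (rows) on the 9 arrays (columns). Grey cells are at the floor and numbers give the height. Floors differ between arrays, so heights on different arrays are not levels on 1 scale. Il1rn is the 1 member above the floor on overventilation array 3.

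Promoter windows were present for 30 of the 41 members in the RefSeq table of build GRCm38.p6, 36 windows in all. Exact matches were searched on both strands for 4 motifs over the windows of 300 bases. The AP-1 motif TGANTCA was in 9 of 36 member windows (25.0%) and in 7.81% of all 32851 windows. The STAT motif TTCNNNGAA was in 6 (16.7%, against 8.30%), the interferon response motif (GAAA, 2 bases of any kind, GAAA) in 4 (11.1%, against 3.44%) and the NF-kB motif (GGG, 2 bases of any kind, TTTCC) in 2 (5.56%, against 1.63%). Some windows of a gene overlap. Both NF-kB matches are the same site of Il1rn, and 2 of the AP-1 matches are the same site of Tnfsf13b. Counted by gene, the AP-1 motif was in 8 of the 30 members with a window. Windows of Il1rn and Il1rap are shown because these members lie at the floor in most controls and above it on overventilation arrays. Other members, such as Il1r2 and Il13ra2, fit this description too, and their windows are not shown. The windows shown are at chr2:24345121-24345420 and chr16:26581455-26581754, plus strand, 5′ to 3′. Capitals mark the NF-kB match of Il1rn, at position -51 from the start site, and the interferon response match of Il1rap, at position 21 counted from it. In an overlapping window of Il1rn the same NF-kB match is at position 30. A further window of Il1rn holds an AP-1 match at position -141. A match describes the letters of a window and shows no binding. In the member windows no matches of different motifs overlapped.
Il1rn: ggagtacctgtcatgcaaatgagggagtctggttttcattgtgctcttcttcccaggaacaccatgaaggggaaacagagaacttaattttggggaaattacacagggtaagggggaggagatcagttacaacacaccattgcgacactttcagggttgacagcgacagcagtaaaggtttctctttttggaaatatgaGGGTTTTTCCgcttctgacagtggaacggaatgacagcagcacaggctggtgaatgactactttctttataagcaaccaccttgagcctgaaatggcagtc
Il1rap: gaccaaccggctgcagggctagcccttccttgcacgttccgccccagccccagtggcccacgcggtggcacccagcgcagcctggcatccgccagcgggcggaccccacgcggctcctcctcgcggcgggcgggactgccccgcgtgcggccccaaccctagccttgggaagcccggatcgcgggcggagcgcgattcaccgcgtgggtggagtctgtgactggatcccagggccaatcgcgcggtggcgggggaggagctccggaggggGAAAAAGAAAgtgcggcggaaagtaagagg

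Receptors of the lymphocyte interleukins and of interleukin 3 had small differences that did not pass the test. Il2rb, the chain shared by the receptors for interleukins 2 and 15, lay at 0.33, -0.09 and -0.23 in controls, at 0.22, -0.19 and -0.09 after LPS and at -0.05, -0.34 and -0.71 after overventilation. Its difference for overventilation, -0.36 (95% interval -1.07 to 0.34), was the lowest of the interleukin receptors, and for LPS it was -0.02 (-0.72 to 0.68). Il7r, which serves interleukin 7 and TSLP, was at the floor on control array 3 and on overventilation array 3 and reached 2.50 above it on LPS array 1. On the common floor it lay at -0.30, 0.61 and -0.30 in controls, at 0.98, 0.10 and 0.00 after LPS and at -0.30, 0.02 and -0.30 after overventilation, and differed by -0.56 between overventilation and LPS (limma adjusted p = 0.646). Il15ra stood 0.60 to 2.02 above the floor on 7 arrays and was at the floor on control array 3 and overventilation array 3. Above the common floor it lay on control array 1, at 0.25, and on LPS arrays 2 and 3, at -0.04 and 0.56. All other arrays were at that floor, at -0.12. Its differences for overventilation thus have no measured overventilation level, though they enter the counts and medians above. Il3ra, which binds interleukin 3, lay at -0.04, 0.18 and -0.15 in controls, at -0.04, 0.33 and 0.32 after LPS and at 0.20, 0.33 and 0.53 after overventilation. Its groups did not overlap for overventilation, with a log2 difference of 0.36 (adjusted p = 0.604) and with the lowest overventilation array, at 0.20, next to the highest control, at 0.18.

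The remaining interleukin receptors were near the floor. Il10ra was above it on control array 1 alone, by 1.12, as was Il6ra, by 0.21. Control array 1 had the lowest floor of the 9. On the deposited scale its Il6ra value, -0.35, lay below the floor of every other array except overventilation array 2, so those arrays could not have shown it. Il10rb and Il17ra were above the floor on LPS array 2 alone, by 0.12 and 0.03. Il12rb1, shared by the receptors for interleukins 12 and 23, was above the floor on control array 1 and overventilation array 1, by 0.57 and 0.27. Their deposited log2 ratios had the opposite order, at -0.11 and 0.05. Il17rb was above the floor on 3 arrays by at most 0.39. Il13ra2, a decoy for interleukin 13, stood 0.52 and 0.70 above the floor on overventilation arrays 1 and 2, against at most 0.22 on the other arrays. These heights start from unequal floors. On the deposited scale overventilation arrays 1 and 2 were at 0.47 and 0.35, and control array 3, above its floor, lay between them at 0.44. Il18rap, a chain of the interleukin 18 receptor, was above the floor on 7 arrays by 0.07 to 0.67. Over the 16 members at the floor on 2 to 8 arrays, 9 were above the floor on more LPS than control arrays, or 56.2%, against 29.5% of the 2782 such probes of the table. On fewer LPS arrays there were 4, or 25.0%, against 33.1%. For overventilation 6 were above it on more arrays (37.5%, background 26.8%) and 3 on fewer (18.8%, background 43.8%). Members were at the floor of LPS array 2 less often than probes in general (19.5% against 34.3%), and the part of that array in these counts was not tested. Il4ra and Il1rl1 were not analysed here.

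Genes that act with these receptors were counted in lists. In the list of TNF receptor signalling, 19 of 28 probes were tested, and for overventilation 5 were higher and 1 was lower at an unadjusted limma p under 0.05, where the background was 14.9%. None passed at an adjusted p under 0.05. The highest was Cflar, which encodes c-FLIP, the inhibitor of caspase 8 at death receptors. It lay at 0.54, 0.35 and -0.88 in controls, at 0.67, 2.09 and 1.53 after LPS and at 2.26, 1.68 and 3.02 after overventilation. Both treated groups lay above all controls, with log2 differences of 2.32 (adjusted p = 0.193) and 1.43 (adjusted p = 1). Birc3, an inhibitor of apoptosis, Nfkb2, a subunit of NF-kB, Tnip1, a partner of the NF-kB inhibitor A20, and Traf4, an adaptor, were the other 4 on the higher side, and Fadd, the adaptor that brings caspase 8 to death receptors, was the lower one with -0.75 (adjusted p = 0.325).

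Of 13 tested interleukin ligands 2 (15.4%, near the background of 14.9%) were higher after overventilation at an unadjusted limma p under 0.05, and none lower. They were Il11 and Il6, with log2 differences of 2.02 and 2.23 (limma adjusted p = 0.193 and 0.306). Of 17 tested JAK-STAT probes 3 (17.6%, also near the background) were higher and none lower. These were probes of Stat2, Socs3 and Stat3, and a second probe of Stat3 did not reach that level. Of 10 tested receptor chains with other symbols 1 was higher and 1 lower at that level (20.0%, against 14.9%). Osmr, the oncostatin M receptor, was higher with a log2 difference of 1.62 (limma adjusted p = 0.215). Csf3r, the G-CSF receptor of neutrophils, was lower with -0.92 (adjusted p = 0.301). Il6st, the shared chain of the interleukin 6 family, differed by -0.18 at its tested probe, and a second probe was at the floor on 7 arrays. Among 6 tested TNF superfamily genes with other symbols Cd40 was the 1 higher (16.7%, near the background), with 1.79 (limma adjusted p = 0.24). Fas, a death receptor, lay at -0.52, 0.66 and -1.32 after overventilation with a difference of -0.39 (adjusted p = 0.81). Tnf, the ligand of Tnfrsf1a and Tnfrsf1b, had no array above the floor, and Il1b, the ligand of Il1r1, differed by 0.55 (adjusted p = 0.694). In interleukin 1 receptor signalling, with 5 probes tested, the adaptor Myd88 differed by 2.56 and Peli1 by -2.37 (adjusted p = 0.219 for each), and the arrays of overventilation and control overlapped for both. Of the shedding list 2 of 6 probes were tested, and Timp3, the inhibitor of the sheddase ADAM17, lay at 2.03, 1.17 and 2.72 after overventilation against 1.12, -0.77 and -0.35 in controls (difference 1.97, adjusted p = 0.213). Over these lists 71 different probes were tested. For overventilation 17 of them had an unadjusted limma p under 0.05 (23.9%, against 14.9% of all tested probes). For LPS 3 did, Cflar, Il22 and Socs1, all higher (4.23%, against 2.07%). Il22 lay at the common floor on all 3 controls and on LPS array 1, and passed the filter by treated arrays alone. Its difference thus has no measured control level, and no weight is placed on its part in that count.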

How the data were processed

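The table of all 9 samples holds linear ratios, deposited per probe relative to the control arrays: the mean control log2 ratio was 0 at every probe (largest deviation 2.5e-09). The sources used here do not give the array maker, the dyes, the scanner or the scaling between arrays. The arrays give no read depth, and their number limits the precision. A value counted as at the floor where 2 or more arrays of its row followed the pattern of the most frequent row (1908 rows) within 1e-06 on the log2 scale and no array lay below it. Levels were raised to the highest floor (log2 1.15), relative to the control mean, which left 5710 probes. Group means were fitted on all 9 arrays by limma 3.58.1 (R 4.3.3; lmFit and eBayes, two-sided, Benjamini-Hochberg over all tested probes). The fit was tested on simulated data. Alternatives were other floors, filters and normalizations, array weights, a replicate block and each array left out.

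The planned limma test was kept. Members, gene lists and tests were chosen with earlier results of these data known. Members named by rule are those with an unadjusted p under 0.05, those without overlap and a log2 difference of 1 or more, the highest and lowest of each class per comparison, and the receptors, ligand and antagonist Il1r1, Il1r2, Il1rn, Il6ra, Il10ra, Il4ra, Il1rl1, Tnfrsf1a, Tnfrsf1b, Tnfsf10 and Tnfrsf10b, of which Il4ra and Il1rl1 had no named probe and those at the floor are given by their height above it. Others were named after their values were seen. Gene names came from the platform annotation (8983 probes with 1 symbol, 1 with several, 1028 unnamed), and all 41 members matched RefSeq by gene ID.

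Same-numbered arrays deviated from their group means with correlations of 0.497, 0.247 and 0.199 for LPS and control, 0.508, 0.133 and 0.033 for overventilation and control, and 0.496, 0.211 and 0.038 for overventilation and LPS. The rule that all be above 0.1, which would pair arrays by number on the data alone, was met for LPS and control. Correlations between arrays of different numbers were not taken, so these values cannot show that a number marks a shared animal or day. The main fit uses no pairing.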

Additional observations from a re-analysis of the deposited data

How the results depend on the processing

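Under all 18 alternatives 0 of the tested members were called in each of the 3 comparisons at an adjusted p under 0.05, the replicate block included. With the block, unadjusted p-values under 0.05 numbered 3, 0 and 0 for overventilation and LPS against control and for overventilation against LPS. Without overventilation replicate 2, 290 and 226 of all probes were called for overventilation against control and against LPS, none of them a member, and without control replicate 3, 1 probe was called in each comparison with control. Of 24 differences of named members 14 kept their direction under all alternatives. With array weights Tnfsf10 turned to -0.0068 (overventilation against control), Tnfrsf1a to -0.14 and Il2rb to 0.041 (LPS against control), and Il1rapl2 to -0.085 (overventilation against LPS). With quantile normalization Il2rb turned to 0.077 and Il1rapl2 to -0.038, Il2rb to 0.0046 with centred arrays, and Il1rapl2 to -0.0031 at the lower floor without overventilation array 3. With 1 array left out at a time, the difference from control after overventilation ran from -0.089 to 0.13 for Tnfsf10 and from -0.51 to 0.24 for Tnfsf13. After LPS it ran from -0.068 to 0.32 for Tnfsf10, -0.67 to 0.076 for Tnfsf13, -0.26 to 0.45 for Tnfsf9, -0.97 to 0.21 for Tnfrsf11b, -0.50 to 0.56 for Tnfrsf1a and -0.14 to 0.14 for Il2rb. Between overventilation and LPS it ran from -0.28 to 0.11 for Tnfsf10 and from -0.28 to 0.64 for Il1rapl2. The median for overventilation against control of the interleukin receptors was 0.26 as deposited. With no filter it was 0 for both receptor classes. The median of the TNF receptors for LPS against control was -0.043 with array weights and 0.25 with quantile normalization. The causes were not tested. The floor limits the 18 members that did not pass the filter on low values.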
